A study of Mus musculus with 6 samples.

Results

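The 10 genes described here are Myc, Mycn and 8 genes of ribosome biogenesis (Ncl, Npm1, Fbl, Nop56, Nop58, Nolc1, Pes1 and Dkc1), chosen by symbol and each listed once among the 22026 gene symbols of the files. They were measured by RNAseq in mouse choroid ECs at P5 (postnatal day 5) and at P30 (postnatal day 30, when vision is mature). There were 3 isolations per age, with 7 animals pooled in each isolation. The study's methods name 129/B6 mice, male and female, for P30 and do not restate strain or sex for P5. ECs were labelled in the living mouse by injecting an antibody against the endothelial surface protein VE-Cadherin, and were then sorted from dissected RPE and choroid. Isolations are numbered here as the replicates of the labels are. Neither the labels nor the study's methods name a transgene or another treatment of these mice, but the ages differed in the antibody dose and in how the mice were anaesthetized (by cold at P5) as well as in age.

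MYC proteins are transcription factors that pair with MAX, bind the DNA letters CACGTG (the E-box) and raise the transcription of genes for growth, those of the nucleolus among them. The nucleolus is where RNA polymerase I makes the precursor of ribosomal RNA. There, small nucleolar ribonucleoproteins (snoRNPs) modify the precursor, and assembly factors cut and fold it into the small and large ribosomal subunits. Cells that divide need more of this machinery than resting cells do, and new vessels in the developing eye are lined by dividing ECs.

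Values are FPKM, that is fragments per length of transcript and per depth of the library, which the authors scaled per sample by the upper quartile, so levels can be compared between genes of different length. Ages were compared with limma on log2(FPKM + 1) over 12481 genes, those whose mean FPKM reached 5 at P5 or at P30, and all 10 genes were among them. A difference was called at an adjusted p under 0.01 with at least a 2-fold difference in mean FPKM + 1. Differences are given as P30 minus P5 on the log2(FPKM + 1) scale, with their SE. The median of all genes tested was -0.097 on this scale, and it moved to -0.27 when the samples were scaled to the same summed FPKM and to -0.012 with median-of-ratios scaling. In bulk RNA, fewer cells that express a gene cannot be told apart from less RNA of it per cell.

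Of the 10 genes, 1 (Mycn) was lower at P30 past both limits, and none was higher. Among all genes tested, 5.82% were lower and 5.89% higher by the same limits. With the adjusted p alone, 3 of the 10 genes were lower (Mycn, Dkc1 and Ncl), against 10.7% of all genes, and 0 were higher, against 8.51%. The same 3 genes, and none higher, had an unadjusted limma p under 0.05, against 28.8% of all genes lower and 20.7% higher. In these 3 genes every P30 isolation lay below every P5 isolation, as in 33.0% of all genes tested. None of the 10 lay wholly above, against 22.0%. Under scaling to the same summed FPKM, Dkc1 also passed both limits, and calls over all genes shifted from 49.7% to 62.9% lower. The median difference of the 10 genes was -0.31.

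**Figure D1:**
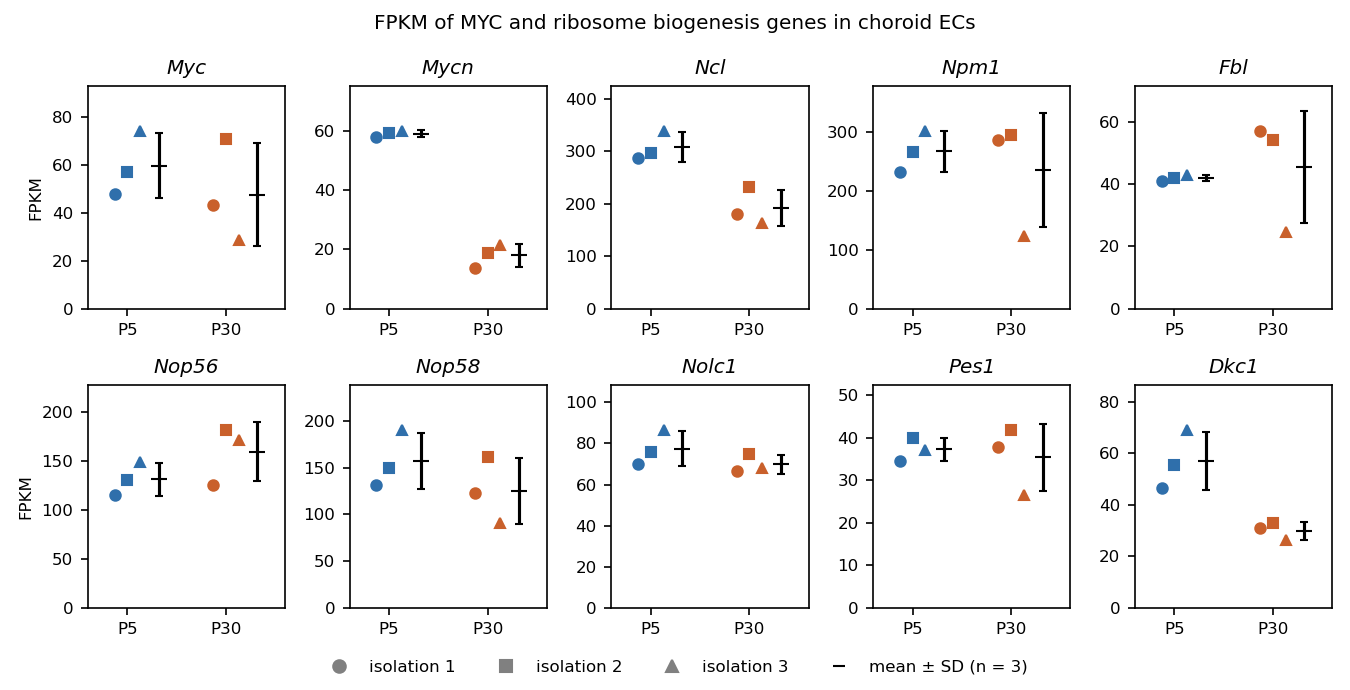
FPKM (vertical axes, each from 0) of the 10 genes at P5 and P30, with 1 symbol per isolation and the mean ± SD of each age beside it. The ages separate in Mycn, Ncl and Dkc1 and overlap in the other 7 genes, in several of which P30 isolation 3 is the lowest sample.

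Mycn (chromosome 12, 12942902 to 12948720 on the minus strand of mm9) encodes N-MYC, the family member known from embryonic and progenitor tissues. At P5 isolations 1, 2 and 3 had 57.9, 59.0 and 60.0 FPKM of it, and at P30 they had 13.7, 18.8 and 21.3. The P5 isolations thus lay within a narrow range, with an SD of 1.78% of the mean, and all P30 isolations were far below it. Mean FPKM was 59.0 ± 1.05 at P5 against 18.0 ± 3.87 at P30 (SD, n = 3 each), 3.28-fold higher at P5 (log2 difference -1.68, SE 0.18, adjusted p = 0.000707 from limma). The call held in 16 of 16 alternative analyses, with adjusted p between 0.000509 and 0.00712.

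Myc (chromosome 15, 61816946 to 61821929, plus strand) encodes c-MYC, the family member found in most dividing cells. It had 48.2, 57.0 and 74.5 FPKM in isolations 1, 2 and 3 at P5, against 43.5, 71.1 and 28.6 at P30. The ages overlapped, since P30 isolation 2 was above all but P5 isolation 3. Mean FPKM was 59.9 ± 13.4 at P5 against 47.7 ± 21.5 at P30 (SD, n = 3 each, log2 difference -0.39, SE 0.32, adjusted p = 0.358 from limma). The 95% interval, from -1.15 to 0.36, holds a fall of more than 2-fold and no change, so these isolations do not settle whether Myc changed. The FPKM of Mycn divided by that of Myc was 1.20, 1.04 and 0.805 in isolations 1, 2 and 3 at P5, against 0.316, 0.265 and 0.745 at P30. At P5 the family members were thus at about the same level, and at P30 Myc was above Mycn in every isolation. This ratio was looked at after the values had been seen and was not tested.

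Genes of the proteins that pair with MAX, as MYC does, were called in both directions. Max itself had 136 ± 4.88 FPKM at P5 and 153 ± 14.3 at P30 (SD, n = 3), a log2 difference of 0.17 (SE 0.11, adjusted p = 0.241 from limma) that was -0.001 with samples scaled to the same sum. Mxd3, a MAX partner that represses MYC targets and is known to be made in dividing cells, had 39.5, 58.2 and 57.9 FPKM in isolations 1, 2 and 3 at P5, against 1.95, 5.29 and 3.96 at P30. It fell (log2 difference -3.53, SE 0.33, adjusted p = 0.000393 from limma), the lowest log2 difference of this list.

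Mxd1, another repressor of this family and known from cells that leave the cell cycle, had 25.6, 20.6 and 24.3 FPKM in isolations 1, 2 and 3 at P5, against 49.5, 70.8 and 62.6 at P30. It rose, with every P30 isolation above the P5 range (log2 difference 1.33, SE 0.18, adjusted p = 0.00157 from limma). Its adjusted p was 0.0109 without P5 isolation 2, and under 0.01 in the other 15 of 16 alternatives. Of 12 genes of the MYC family and its partners, 11 were tested, 2 (Mycn and Mxd3) were called lower and 1 (Mxd1) higher. These are 18.2% and 9.09%, against 5.82% and 5.89% of all genes. Every P30 isolation was below every P5 isolation in 2 of the 11, against 33.0% of all genes. All were above in 4 (Mxd1, Mxd4, Mnt and Mlx), against 22.0%.

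The other tested genes of this network did not pass. For the MAX partners Mxd4, Mxi1, Mnt and Mga, log2 differences were 0.24, 0.35, 0.36 and -0.17. That of Mlx, whose MAX-like protein pairs with some of the same repressors in place of MAX, was 0.32. That of Zbtb17, which encodes the MYC-binding factor MIZ1, was -0.32. Their adjusted p lay between 0.0734 and 0.438 in limma. Mycl1, the gene of L-MYC, was below the minimum at both ages (1.51 ± 0.0964 FPKM at P5 and 0.410 ± 0.415 at P30, SD, n = 3).

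**Figure D2:**
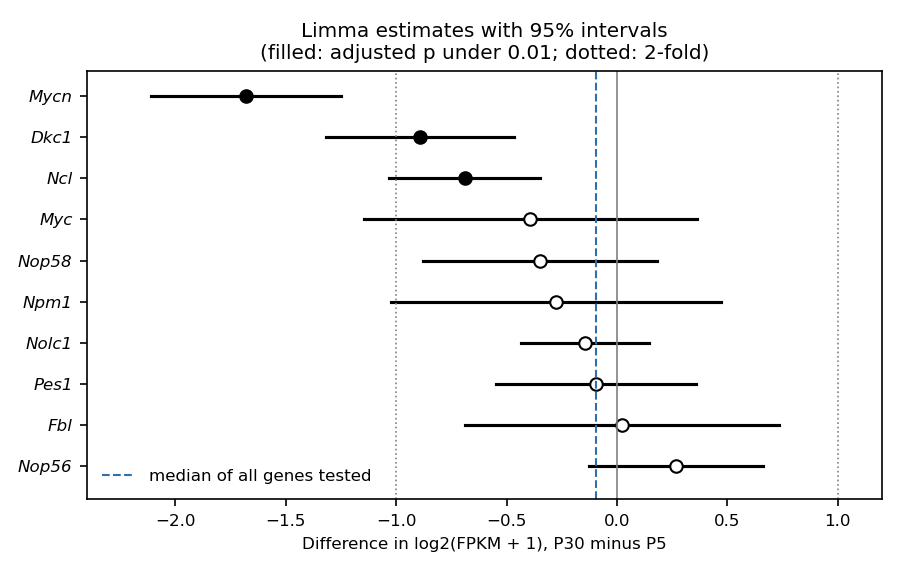
Log2 difference in FPKM + 1, P30 minus P5, for each gene (points) with the 95% interval of the limma estimate (lines), where filled points mark an adjusted p under 0.01, dotted lines a 2-fold difference, and the dashed line the median of all genes tested (-0.097). Mycn alone lies wholly beyond 2-fold, while the intervals of 7 genes cross 0.

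Ncl (chromosome 1, 88241294 to 88256030, minus strand) encodes nucleolin, an abundant nucleolar protein that binds the ribosomal RNA precursor and acts in its transcription. Its FPKM was 287, 297 and 339.8 in isolations 1, 2 and 3 at P5, against 181, 232 and 164 at P30, so the ages did not overlap. It was 308 ± 28.0 at P5 and 192 ± 35.1 at P30 (SD, n = 3), 1.60-fold higher at P5 (log2 difference -0.69, SE 0.15, adjusted p = 0.00965 from limma). The adjusted p stayed under 0.01 in 7 of 16 alternatives and lay between 0.00202 and 0.045 over all of them. These 7 include the 2-fold limit on the limma coefficient, which keeps the adjusted p of the main fit. The difference remained below 2-fold in each alternative.

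Npm1 (chromosome 11, 33052287 to 33063206, minus strand) encodes nucleophosmin, a chaperone of the outer nucleolus. It had 233, 266 and 303 FPKM in isolations 1, 2 and 3 at P5, against 287, 295 and 124 at P30. P30 isolation 3 was lower than any other sample, while the other P30 isolations lay within the P5 range. The log2 difference was -0.28 (SE 0.32, 95% interval -1.03 to 0.47, adjusted p = 0.516 from limma), and 0.13 without P30 isolation 3 (adjusted p = 0.438). Processed copies of Npm1 elsewhere in the genome could share its reads, so its level is uncertain.

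Fibrillarin, Nop56 and Nop58 form the core of the box C/D snoRNPs, which add methyl groups to ribosomal RNA. Fbl (chromosome 7, 28954765 to 28964288, plus strand), the gene of the methyltransferase fibrillarin, had 41.1, 41.9 and 42.8 FPKM in isolations 1, 2 and 3 at P5, against 57.2, 54.3 and 24.7 at P30. The P5 isolations were close together, and P30 isolations lay on both sides of them. The log2 difference was 0.021 (SE 0.30, 95% interval -0.69 to 0.73, adjusted p = 0.959 from limma), and without P30 isolation 3 it was 0.40 (adjusted p = 0.0476).

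Nop56 (chromosome 2, 130100166 to 130105049, plus strand) and Nop58 (chromosome 1, 59741853 to 59768968, plus strand) encode related scaffold proteins that sit side by side in this particle. Nop56 had 115, 130.4 and 149 FPKM in isolations 1, 2 and 3 at P5, against 125, 182 and 172 at P30. Its means were 131.5 ± 16.9 and 159.5 ± 30.3 (SD, n = 3), the highest log2 difference of the 10 genes (0.27, SE 0.17, 95% interval -0.13 to 0.66, adjusted p = 0.245 from limma). Nop58 had 131, 149.8 and 190.5 FPKM in isolations 1, 2 and 3 at P5, against 123, 162 and 90.8 at P30 (log2 difference -0.35, SE 0.23, 95% interval -0.88 to 0.18, adjusted p = 0.254 from limma). Neither gene separated the ages. Nop56 divided by Nop58 was 0.878, 0.871 and 0.781 in isolations 1, 2 and 3 at P5, against 1.02, 1.12 and 1.89 at P30. Nop58 was therefore the higher one in each P5 isolation and Nop56 in each P30 isolation, a ratio seen after the values and not tested.

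Dkc1 (chromosome X, 72341193 to 72355116, plus strand) encodes dyskerin, the enzyme of the box H/ACA snoRNPs that makes pseudouridine and is also part of telomerase. It had 46.5, 55.5 and 69.2 FPKM in isolations 1, 2 and 3 at P5, against 30.9, 33.1 and 26.2 at P30, without overlap. The mean was 57.1 ± 11.4 at P5 and 30.0 ± 3.51 at P30 (SD, n = 3), 1.90-fold higher at P5 (log2 difference -0.89, SE 0.18, adjusted p = 0.00858 from limma). The adjusted p was under 0.01 in 5 of 16 alternatives, and it was 0.0247 when replicate numbers were fitted as blocks. These 5 include the 2-fold limit on the limma coefficient, which keeps the adjusted p of the main fit.

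The partners of dyskerin in the H/ACA core did not move alike. Gar1 had 80.4, 102 and 104 FPKM in isolations 1, 2 and 3 at P5, against 43.3, 29.8 and 48.3 at P30, and it fell past both limits (log2 difference -1.23, SE 0.20, adjusted p = 0.00365 from limma). Its adjusted p was 0.0219 without P5 isolation 2 and 0.0228 without P5 isolation 3. Nhp2 had 80.5 ± 10.3 FPKM at P5 and 54.4 ± 6.24 at P30, without overlap (log2 difference -0.55, adjusted p = 0.0212 from limma). Nop10 had 149.7 ± 12.3 and 185 ± 35.3 (log2 difference 0.29, adjusted p = 0.174), and Nhp2l1 (SNU13), a core protein of the C/D particles, had 129 ± 8.21 and 144 ± 26.5 (log2 difference 0.14, adjusted p = 0.466).

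Nolc1 (chromosome 19, 46150353 to 46160018, plus strand) encodes NOPP140, a chaperone that carries snoRNPs to the nucleolus. It had 70.1, 75.8 and 86.7 FPKM in isolations 1, 2 and 3 at P5, against 66.5, 74.8 and 68.0 at P30. The log2 difference was -0.15 (SE 0.12, adjusted p = 0.373 from limma), and its 95% interval, from -0.44 to 0.14, lies inside 2-fold in either direction.

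Pes1 (chromosome 11, 3863978 to 3880007, plus strand) encodes pescadillo, which works with BOP1 and WDR12 in maturing the large subunit. It had 34.6, 40.0 and 37.2 FPKM in isolations 1, 2 and 3 at P5, against 37.7, 41.9 and 26.5 at P30. Again P30 isolation 3 was the lowest and the other samples lay together (log2 difference -0.096, SE 0.19, 95% interval -0.55 to 0.36, adjusted p = 0.715 from limma). Bop1 had 63.6 ± 6.34 FPKM at P5 and 48.3 ± 1.27 at P30 (log2 difference -0.39, adjusted p = 0.0425), with every P30 isolation below P5. Wdr12 had 11.9 ± 3.98 and 10.4 ± 4.64 (log2 difference -0.22, adjusted p = 0.663).

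The wider machinery was compared over 100 measured genes of snoRNP, small subunit, large subunit and RNA polymerase I lists, the 10 genes left out. Of these, 2 were called lower at P30 and 0 higher (2.0% and 0%, against 5.82% and 5.89% of all genes), and 98 did not pass both limits. With the adjusted p alone, 9 were lower and 0 higher, against 10.7% and 8.51% of all genes, and at an unadjusted limma p under 0.05, 49 were lower and 5 higher, against 28.8% and 20.7%. The estimate was negative in 84 of the 100 genes, against 56.4% of all genes tested. The median log2 difference was -0.40, against -0.097 over all genes, and ran from -0.56 to -0.31 over the alternatives. In 56 of the 100, every P30 isolation was below every P5 isolation, against 33.0% of all genes. The 2 genes called were Gar1 and Tsr1, a late assembly factor of the small subunit (47.2 ± 8.97 FPKM at P5 and 17.3 ± 5.48 at P30, SD, n = 3, log2 difference -1.42, SE 0.26, adjusted p = 0.00546 from limma). The adjusted p of Tsr1 was 0.0107 with no trend, 0.0138, 0.0288 and 0.0308 without P5 isolation 1, 2 or 3, and 0.0134 without P30 isolation 3. The count of 2 became 0 without P5 isolation 2 or without P5 isolation 3, 1 without P5 isolation 1, 4 without P30 isolation 1 and 6 with samples scaled to the same sum.

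Split by role, the lists count Nolc1, Pes1, Fbl, Nop56, Nop58 and Dkc1 among their genes. Of all genes tested, 5.82% were called lower, 10.7% were lower by the adjusted p alone and 33.0% separated the ages downward. The small subunit processome had the lowest median of these lists, -0.47 over 35 genes. In it 1 gene was called lower (2.86%), 5 were lower by the adjusted p alone (14.3%) and 24 separated downward (68.6%). The large subunit list had a median of -0.33 over 39 genes, with 0 called. Its called count was 2, 1 and 1 lower without P30 isolation 1, 2 or 3, and 3 lower with the same sum. In it 2 genes were lower by the adjusted p alone (5.13%) and 21 separated downward (53.8%). The RNA polymerase I list had -0.40 over 14 genes, with 0 called and 7 separated downward. The snoRNP assembly factors had -0.32 over 10 genes, with 0 called. The snoRNP core had -0.16 over 8 genes, where all genes tested had -0.097. Its log2 differences were negative in 4 genes and positive in 4. In it 1 gene was called lower, 2 were lower by the adjusted p alone and 3 separated downward. None of these lists held a gene called higher. At an unadjusted limma p under 0.05, 28.8% of all genes were lower and 20.7% higher. The lower and higher genes at this limit were 22 and 1 in the small subunit list and 16 and 3 in the large subunit list. They were 7 and 1 in the RNA polymerase I list, 2 and 0 in the assembly factors and 3 and 0 in the snoRNP core.

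**Figure D3:**
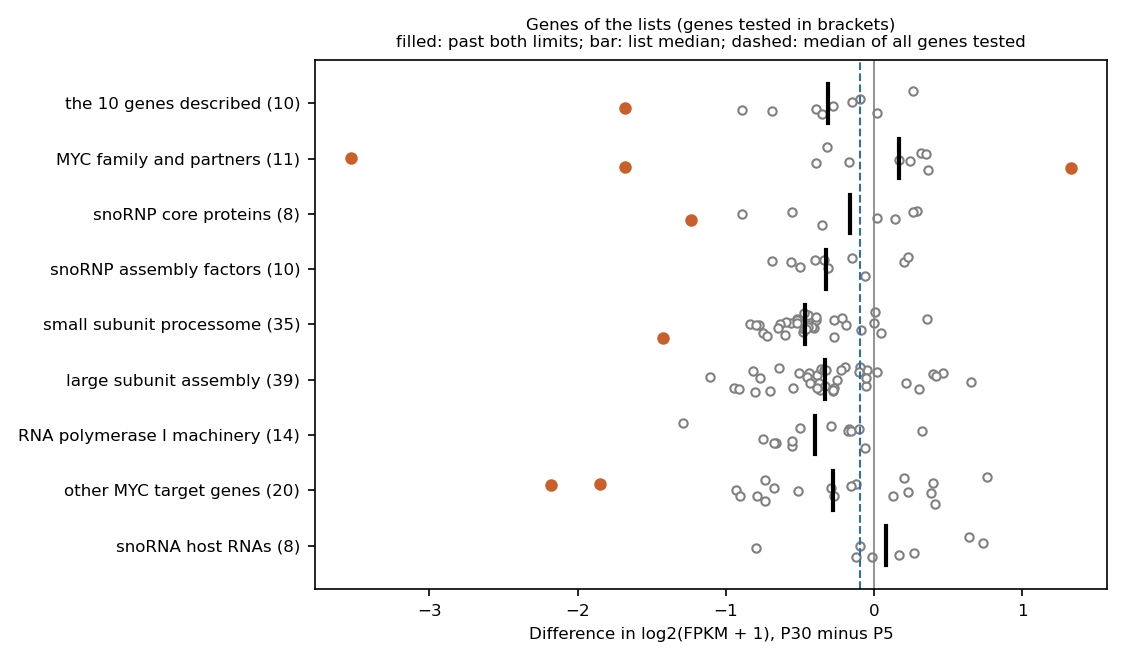
Log2 difference in FPKM + 1, P30 minus P5, of every tested gene (points) in the 10 genes and in 8 lists, with the number tested in brackets, the list median as a bar and the median of all genes tested as a dashed line. Points of the ribosome biogenesis lists mostly lie a little below 0, except in the snoRNP core, where 4 are negative and 4 positive. Few points of these lists are filled, that is past both limits. Of the lists shown, the MYC network alone holds a filled point on each side.

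Other known MYC targets outside the ribosome gave 2 called lower and 0 called higher of 20 genes, against 5.82% and 5.89% of all genes. Their median log2 difference was -0.28. With the adjusted p alone, 6 were lower and 0 higher, against 10.7% and 8.51% of all genes. At an unadjusted limma p under 0.05, 10 were lower and 1 higher (28.8% and 20.7% of all genes). Every P30 isolation was below every P5 isolation in 11 of the 20, against 33.0% of all genes. All were above in 1, against 22.0%. The called genes were Mthfd2, a mitochondrial folate enzyme (16.3 ± 2.29 FPKM at P5 and 2.92 ± 1.25 at P30, log2 difference -2.18, SE 0.33, adjusted p = 0.00258 from limma), and Apex1, a DNA repair nuclease (82.4 ± 10.9 and 22.7 ± 6.79, log2 difference -1.85, SE 0.22, adjusted p = 0.00107 from limma). The count of 2 became 1 without P5 isolation 1, 2 or 3, where the adjusted p of Mthfd2 was 0.0121, 0.0229 and 0.0206. The 8 tested host RNAs of snoRNAs had a median of 0.079 and no call. With the adjusted p alone, 0 were lower (against 10.7% of all genes) and 1 was higher (12.5%, against 8.51%). At an unadjusted limma p under 0.05, 1 was lower and 2 higher, against 28.8% and 20.7% of all genes. Of 81 tested genes of cytosolic ribosomal proteins, 5 were called lower (6.17%, against 5.82% of all genes) and 0 higher (against 5.89%). Their median was 0.060, with 18 lower and 9 higher at an unadjusted limma p under 0.05 (28.8% and 20.7% of all genes). The lower count was 3, 2 and 2 without P5 isolation 1, 2 or 3. The higher count was 24 without P30 isolation 3 and 0 to 2 in the other alternatives. Many of these have near-identical copies that could take their reads. Rps23 and Rpl26, the genes with the lowest log2 differences, had no more than 0.06 FPKM in any P30 isolation, and single genes of this list are therefore uncertain.

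Proliferation markers had a median log2 difference of -4.95, against -0.31 for the 10 genes. Of 8 markers, 7 were called lower at P30 and 0 higher (87.5% and 0%, against 5.82% and 5.89% of all genes). Top2a, a topoisomerase of dividing cells, had 222 ± 70.2 FPKM at P5 and 2.33 ± 0.962 at P30 (SD, n = 3), and Birc5, a protein of the mitotic spindle, had 147 ± 38.3 at P5 and was listed at 0 in every P30 isolation. Mki67, a protein of dividing cells, had 110, 147 and 204 FPKM in isolations 1, 2 and 3 at P5, against 1.64, 3.17 and 1.88 at P30. Pcna, which also serves DNA repair, was the exception, with 304 ± 36.1 FPKM at P5 and 387 ± 38.4 at P30 (log2 difference 0.35, adjusted p = 0.0582 from limma), every P30 isolation being above P5. The part of dividing cells in the fall of Mycn, Dkc1 or Ncl was not tested.

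Among the P5 isolations the genes varied in 1 direction. P5 isolation 1 was the lowest of the 3 in 10 of the 10 genes and P5 isolation 3 the highest in 9, against 31.9% and 32.9% of all genes tested. Over the 100 other ribosome biogenesis genes, P5 isolation 1 was lowest in 67 and P5 isolation 3 highest in 72. The summed FPKM of the proliferation markers was 949, 1237 and 1482 in P5 isolations 1, 2 and 3, also lowest in the first and highest in the third. In the same isolations, marker sums fell from the first to the third for pericytes and smooth muscle (1643, 831 and 380.5). They also fell for haematopoietic cells (795, 719 and 547) and melanocytes (445.5, 114 and 94.9). For RPE (124, 56.8 and 60.9) and fibroblasts (912, 544 and 846) the second was lowest. What sets the order of the P5 isolations in these genes was not tested.

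At P30 the spread was wider. The SD of log2(FPKM + 1) had a median of 0.17 at P5 and 0.32 at P30 over the 10 genes, where all genes tested had 0.13 and 0.26. It was wider at P30 in 8 of the 10 genes, and in 9715 of the 12481 genes tested. P30 isolation 3 was the lowest of the 6 samples in 7 of the 10 genes, against 23.3% of all genes tested, and P30 isolation 2 the highest P30 isolation in 8, against 46.1%. Mycn, Nop56 and Nolc1 did not follow P30 isolation 3 downward, and Mycn was highest there among the P30 isolations. Without P30 isolation 3, the median log2 difference of the 10 genes was -0.11 in place of -0.31, with 6 negative in place of 8. The median of all genes tested was -0.071 in place of -0.097. That of the 100 wider genes was -0.36 in place of -0.40.

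**Figure D4:**
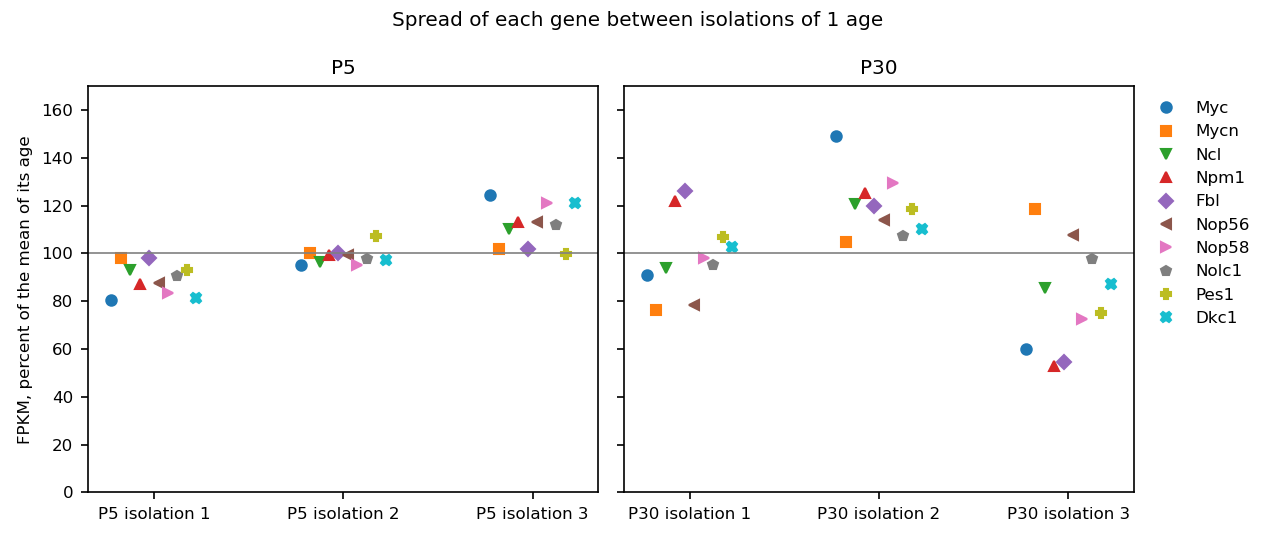
FPKM of each gene in each isolation as a percent of the mean of its age (vertical axis), at P5 (left) and P30 (right). The genes lie below or at the mean in P5 isolation 1, and scatter most in P30 isolation 3, where Npm1, Fbl and Myc are lowest and Mycn is highest.

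The sorted cells carried endothelial markers at both ages. The summed FPKM of 6 endothelial markers, led by Kdr, was 10380 to 10630 at P5 and 10090 to 11360 at P30, but single markers differed in opposite directions. Cdh5, the gene of the VE-Cadherin used for the sort, had 2971 ± 95.5 FPKM at P5 and 1885 ± 52.4 at P30 (SD, n = 3, log2 difference -0.66, adjusted p = 0.00205 from limma), while Kdr had 2488 ± 99.4 and 3389 ± 485 (0.44, adjusted p = 0.0338) and Tie1 1997 ± 95.4 and 2594 ± 291 (0.37, adjusted p = 0.0406), each without overlap. Cdh5 and Tie1 were named after their values had been seen. Markers of other cells were present and mostly higher at P30. The summed FPKM of 6 RPE markers, led by Ttr, was 56.8 to 124 at P5 and 418 to 3496 at P30. For 8 pericyte and smooth muscle markers, led by Rgs5, it was 380.5 to 1643 and 2077 to 6748, and for 5 fibroblast markers, led by Dcn, 544 to 912 and 1524 to 3806. For 4 melanocyte markers, led by Dct, the ages overlapped (94.9 to 445.5 and 116 to 1222), as they did for 6 haematopoietic markers, led by Lyz2 (547 to 795 and 263 to 677), of which 3 lay wholly below P5 at P30 and 2 of these, Ptprc and Cx3cr1, were called lower. All P30 isolations were above all P5 isolations in 6 of 6 RPE, 6 of 8 pericyte and smooth muscle and 3 of 5 fibroblast markers. Of all genes tested, 22.0% lay wholly above P5 at P30, 33.0% lay wholly below and 5.82% were called lower. P30 isolation 3, the lowest sample for most of the 10 genes, had the lowest RPE and melanocyte sums at P30, and P30 isolation 2 the highest pericyte and fibroblast sums. No marker was listed at 0 in every sample. The part of these cells in the values of the 10 genes was not tested.

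Promoter sequences were read to see whether the letters that MYC and E2F proteins bind stand before these genes, E2F being the factor family that drives genes of DNA replication. Of the 10 genes, 7 have an entry in the RefSeq promoter table (250 bases before to 50 after the start of the gene), and Myc, Npm1 and Fbl have none. Each of the 7 sequences matched mm9 exactly at 1 place, and coordinates are those of mm9. Distances count from the RefSeq start, which for Mycn lies 78 bases inside the GENCODE gene given above, before the GENCODE start for Nop58, Nop56 and Nolc1, and at the same base for Ncl, Pes1 and Dkc1. Both strands were searched. The E-box CACGTG was found in 1 of the 7, that of Pes1, and in 7.15% of the 32851 promoters of the table. The related CACGCG was found in 2 (Pes1 and Nolc1), and in 9.27% of all. The general promoter letters CCAAT and TATAAA were each found in 2 of the 7, and in 37.4% and 13.6% of all.

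The E2F letters TTTGGCGC or TTTCCCGC were found in 4 of the 7 (Mycn, Ncl, Nop58 and Nolc1), and in 1.56% of all promoters. Mycn, with the lowest log2 difference of the 10 genes, holds TTTGGCGC at 2 places, 183 and 168 bases before the RefSeq start. The 7 promoters range from 45.3% to 69.3% in GC content, with a median of 52.7% over the table. A match is a run of letters, not a shown site. Dkc1, lower at P30 by the adjusted p alone, held neither the E-box nor the E2F letters. Nop58 and Nolc1 held the E2F letters and passed neither the adjusted p nor the 2-fold limit. The stretches are printed 5′ to 3′ on the strand of the gene, with the matched letters in capitals (GCGCCAAA and GCGGGAAA are the reverse strand), so that the paired match in Mycn can be seen beside the single ones. They lie at chr12:12948787-12948841 for Mycn (minus strand), chr1:88256231-88256270 for Ncl (minus strand), chr1:59741726-59741765 for Nop58 (plus strand), chr19:46150204-46150243 for Nolc1 (plus strand) and chr11:3863968-3863997 for the E-box of Pes1 (plus strand), which begins at base 3 of the gene.
Mycn: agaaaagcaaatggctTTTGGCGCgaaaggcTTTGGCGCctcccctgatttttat
Ncl: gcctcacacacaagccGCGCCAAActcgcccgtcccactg
Nop58: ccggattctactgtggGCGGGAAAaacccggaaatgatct
Nolc1: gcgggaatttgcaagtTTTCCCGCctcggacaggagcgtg
Pes1: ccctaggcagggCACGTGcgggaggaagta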

How the data were processed

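RNA of sorted choroid ECs was sequenced in 3 isolations at P5 and 3 at P30, and samples were grouped by their titles. TopHat alignments to mm9 at default settings were turned by the authors into FPKM with CuffLinks, corrected for GC and scaled by the upper quartile. The deposited FPKM have 2 decimals, 1 value per gene symbol. The submitters' processing notes also name CASAVA 1.8.2 and FastQC. Versions of the other tools and the gene annotation are not given in the sources used here. Read counts were not used here, and the depth is unknown: ratios of values under 2 FPKM between samples did not collect at single values (at most 4.58% of genes in a bin of 0.05 in log2 ratio).

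Differences on log2(FPKM + 1) were tested with limma 3.58.1 in R 4.3.3 (trend, no block, Benjamini-Hochberg adjustment), with a pseudocount of 1, which understates changes of low genes. The limits, adjusted p under 0.01, 2-fold and FPKM of 5, follow the study's methods. The code was tested on simulated data. Tables were made with scipy 1.17.1, numpy 2.4.6 and pandas 2.3.3 under Python 3.11.15. Exact two-sided permutation tests of 3 isolations against 3 cannot go below p = 0.1, which Mycn, Ncl and Dkc1 each reached. Deviations of same-numbered isolations had correlations of -0.0905 to -0.0305, and the numbers were not treated as pairs. Alternatives were 2 pseudocounts, 2 minimum FPKM values, no trend, 3 other scalings, a replicate block, the 2-fold limit on the limma coefficient, and each isolation left out. The 2-fold limit on the limma coefficient changes the call only, so its adjusted p is that of the main fit.

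The genes and lists were chosen with earlier results of these data known. Genes named beside the 10 are the MYC network, the snoRNP core, the partners of Pes1 and, per list, up to 2 called falls and 2 called rises without overlap between ages, and, of markers, the one with the highest mean. Mki67 was named after its values had been seen. A further marker list is not reported here. Gene positions are from GENCODE M1 for mm9, matched by symbol. Promoter sequences are those of RefSeq (GRCm38.p6), placed in mm9 by exact match.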

Additional observations from a re-analysis of the deposited data

How the results depend on the processing

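Mycn was lower at P30 past both limits in each of the 16 alternatives, the replicate block included (log2 difference -1.68, adjusted p = 0.00282 from limma). With samples scaled to the same sum, 2 of the 10 genes were called (Mycn and Dkc1), and in the other alternatives 1. By the adjusted p alone, Mycn was the 1 gene left with the replicate block (Ncl 0.0224, Dkc1 0.0247), with no trend, with no minimum FPKM and with 5 of the 6 isolations left out in turn. Same-numbered isolations did not deviate together.

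Of the 100 wider genes, 6 were called lower with the same sum, 1 with no trend, and 0 to 4 with 1 isolation left out. Over all genes, leaving out 1 isolation gave 291 to 754 lower and 396 to 849 higher, against 726 and 735 (lower 427, 291 and 297 without P5 isolation 1, 2 or 3, higher 404 and 396 without P5 isolation 2 or 3). With the same sum, the log2 difference turned to -0.146 for Fbl, -0.001 for Max and -0.025 for Nhp2l1. With 1 isolation left out, it ran from -0.188 to 0.403 for Fbl, -0.49 to 0.131 for Npm1, -0.228 to 0.093 for Pes1 and -0.523 to 0.063 for Wdr12, with the highest of each without P30 isolation 3. Why these settings move the values was not tested. The depth is unknown, so counting error cannot be given, and with 3 isolations per age the intervals of 7 of the 10 genes held 0.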
